A study of Mus musculus with 12 samples.

Results

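The levels of 10 genes of fat cell formation and lipid uptake were followed across 12 RNA-seq libraries of mouse breast tumour cells: Lpl, Angptl4, Cd36, Fabp4, Fabp5, Plin2, Pparg, Cebpa, Cebpb and Cebpd. They were chosen by name, 10 of the 55492 features in the count table, with earlier results of the same libraries known, so their levels and differences are descriptions and carry no test. All 10 had enough counts to enter the fit over 15052 genes. The cells, labelled CCN6KOT, are primary cells of a spindle metaplastic breast tumour, were grown in DMEM/F12 with 10% FBS, and in each group carried a lentivirus and had passed puromycin selection. The 4 groups of 3 libraries included a lentivirus control (Vector) and cells with a dominant negative construct (DNTCF4) described as acting on beta-catenin. The others were DNTCF4 cells with a further construct labelled EZH2 (DNTCF4_EZH2) or SET (DNTCF4_SET). Sample titles read PPGS-Vector for the control and DNTCF4-Vector for the DNTCF4 group, so both are labelled with a vector. EZH2 is the methyltransferase of Polycomb repressive complex PRC2, and the labels do not expand SET. No source used here gives the promoters that drive the constructs, and all groups come from 1 line. Libraries are not said to be separate cultures, so errors and p-values cover the variation among these libraries alone, and it may be technical.

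Adipogenesis is driven by a cascade of transcription factors in which Cebpb and Cebpd act early and induce Pparg and Cebpa, which then switch on the genes of the fat cell. Wnt signalling through beta-catenin and TCF factors is known to hold this cascade back. Lipoprotein lipase, encoded by Lpl, frees fatty acids from triglyceride-rich particles, Angptl4 inhibits it, Cd36 takes the fatty acids into the cell, Fabp4 and Fabp5 carry them inside, and Plin2 coats the droplets in which they are stored.

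Upstream sequences were looked up in the RefSeq promoter table of build GRCm38.p6, which matched 5 of the 10 genes with 7 windows, each reaching from 250 bases before to 50 bases after an annotated start. Cebpa, Cebpb, Cd36 and Plin2 had 1 window each and Pparg had 3. Shown without their transcribed part are those of Cebpa and Cd36, which of the 10 had the largest fall and the largest rise from Vector to DNTCF4, and the Pparg start whose window held the motif of the C/EBP factors. Capitals mark motif matches.
Pparg, chr6:115421816-115422065, plus strand: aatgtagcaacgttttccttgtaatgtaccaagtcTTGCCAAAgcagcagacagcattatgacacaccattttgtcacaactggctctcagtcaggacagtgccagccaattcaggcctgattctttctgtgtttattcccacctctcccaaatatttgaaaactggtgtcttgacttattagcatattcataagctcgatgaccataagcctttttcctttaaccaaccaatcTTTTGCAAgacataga
Cebpa, chr7:35119043-35119292, plus strand: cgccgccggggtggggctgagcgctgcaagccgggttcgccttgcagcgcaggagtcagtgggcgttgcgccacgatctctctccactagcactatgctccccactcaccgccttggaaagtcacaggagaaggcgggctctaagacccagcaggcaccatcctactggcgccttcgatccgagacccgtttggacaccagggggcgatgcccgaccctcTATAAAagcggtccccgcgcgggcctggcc
Cd36, chr5:17835897-17836146, minus strand: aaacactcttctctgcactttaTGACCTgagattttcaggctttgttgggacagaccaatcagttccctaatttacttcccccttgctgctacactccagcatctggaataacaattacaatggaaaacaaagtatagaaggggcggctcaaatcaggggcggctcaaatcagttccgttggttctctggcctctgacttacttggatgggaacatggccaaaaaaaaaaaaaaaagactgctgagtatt
The Pparg window lies before the downstream start, that of the fat cell isoform known as Pparg2. The Cd36 window lies inside the span of that gene (17781690 to 17888801, minus strand), before a start downstream of its outer end at 17888801. The C/EBP motif TTGCNNAA, searched on both strands, matched there at positions -215 and -16 from the start, and in 1 of the 7 windows in all against 10.8% of 32851 windows of the table. The capitals in Cebpa are a TATA motif (TATAAA) at position -30, which 13.6% of all windows hold. Those in Cd36, at position -228, match the nuclear receptor hexamer AGGTCA on the other strand, which 4 of the 7 windows and 16.3% of all windows hold. Its direct repeat with 1 base between, bound by PPAR with RXR and overlapping the hexamer by construction, was in 0 of the 7 windows (0.0396% of all), and the TCF/LEF motif ATCAAAG was in 0 of the 7 (3.73% of all). A match describes letters only.

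Values below are CPM, the usual depth-scaled counts, here with library sizes adjusted by TMM factors, differences are log2 values of the edgeR fit with their standard error (SE), and a gene is called where its adjusted p over all tested genes is below 0.05. Library totals ran from 23597545 to 33999982 counts. DNTCF4 replicate 1 stood apart from the other DNTCF4 libraries, with counts that gave a chi-square, divided by its degrees of freedom, of 20.7 and 13.1, where those 2 gave 3.33 with each other. DNTCF4_EZH2 replicates 1 and 2 also lay apart, at 16.3, and the other pairs within a group ran from 2.59 to 6.33. A value is given without these libraries where that changes a call of the 10 genes. Groups whose libraries do not overlap were common over all tested genes. The share was 59.3% between DNTCF4 and Vector, and 39.1% and 37.1% between DNTCF4 and DNTCF4_EZH2 or DNTCF4_SET. It was 31.8% between DNTCF4_EZH2 and DNTCF4_SET, and 68.1% and 66.1% between these and Vector. In bulk RNA, fewer cells that express a gene and less RNA per cell cannot be told apart.

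**Figure D1:**
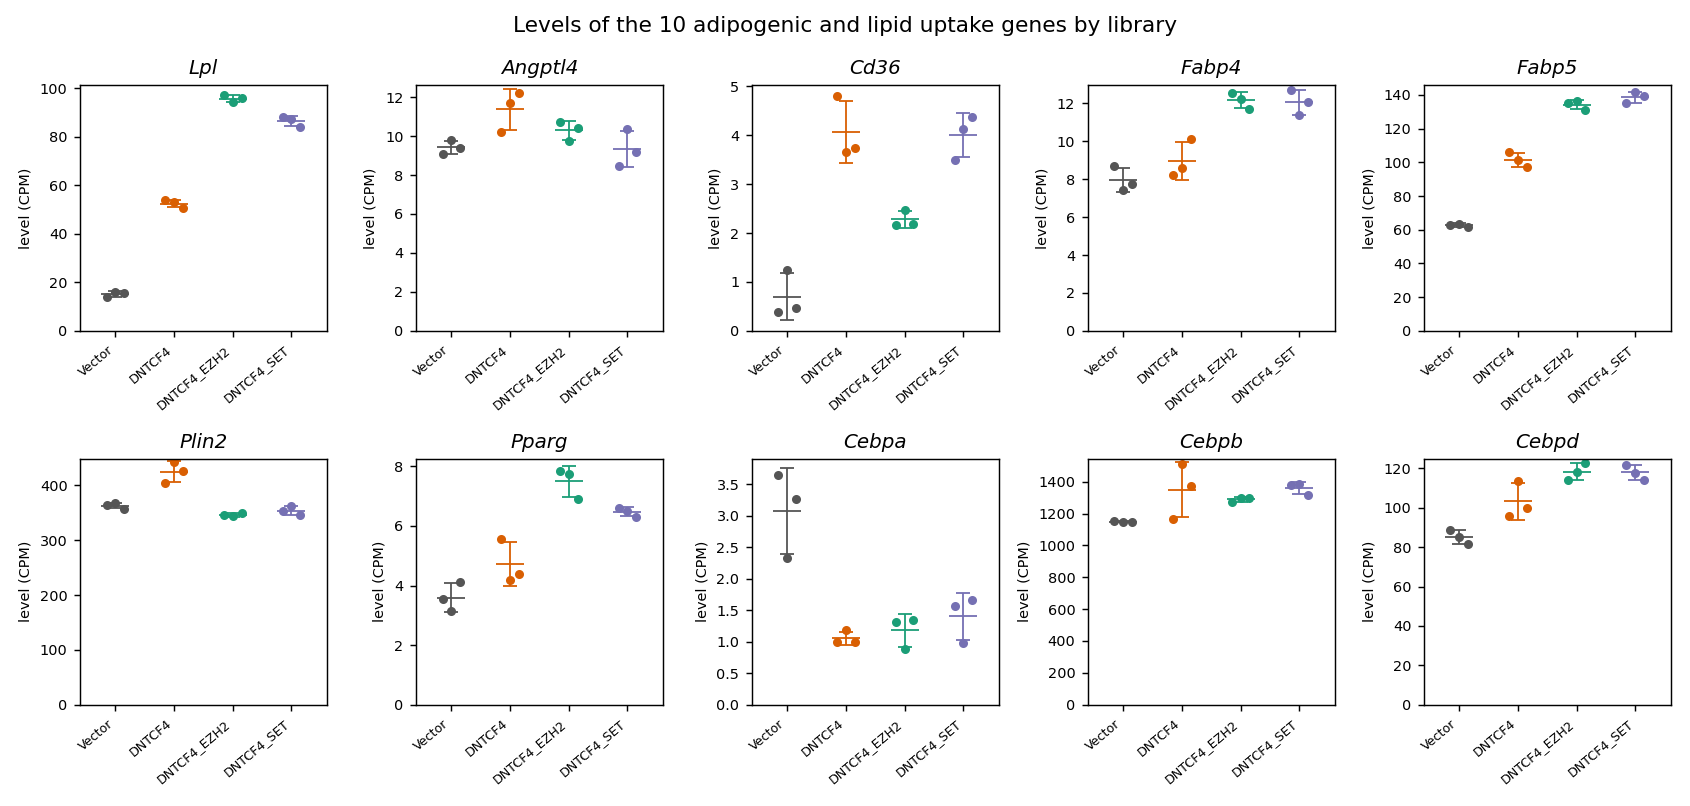
Level of each of the 10 genes in CPM (linear axes from 0) in the 12 libraries, grouped as Vector, DNTCF4, DNTCF4_EZH2 and DNTCF4_SET. Points are libraries, the long bar is the group mean and the short bars are 1 SD (n = 3); Lpl climbs from 15.2 to 95.8 CPM, while Cebpa stands at 3.08 CPM in Vector and at 1.05 to 1.41 in the other groups.

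Lpl (chromosome 8, 68880491 to 68907448, GRCm38, plus strand) was 6.32-fold higher than Vector in DNTCF4_EZH2, the largest fold of the 10 genes there, and 5.71-fold higher in DNTCF4_SET. It stood at 13.8, 15.9 and 15.7 CPM in the Vector libraries and at 53.8, 52.9 and 50.7 in DNTCF4. With the further constructs it reached 97.1, 94.2 and 96.0 CPM in DNTCF4_EZH2 and 88.3, 87.3 and 84.0 in DNTCF4_SET. No group overlapped another, in the order Vector, DNTCF4, DNTCF4_SET, DNTCF4_EZH2. DNTCF4 lay 3.46-fold above Vector (log2 1.79, SE 0.054), and the EZH2 and SET groups lay above DNTCF4 by log2 0.87 (SE 0.0463) and 0.72 (SE 0.0465). Between these last groups the difference of 0.15 (SE 0.045) was not called, and was called at 0.14 when only their 6 libraries were fitted.

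Angptl4, the secreted inhibitor of lipoprotein lipase, moved little (chromosome 17, 33773750 to 33781830, minus strand). Its levels were 9.07, 9.78 and 9.38 CPM in Vector, and 10.2, 11.7 and 12.2 in DNTCF4. DNTCF4_EZH2 gave 10.7, 9.73 and 10.4 CPM, and DNTCF4_SET 8.48, 10.3 and 9.19. DNTCF4 lay above Vector in each library, by log2 0.27 (SE 0.0872), a call lost without DNTCF4 replicate 3 at 0.23. DNTCF4_SET lay below DNTCF4 by log2 -0.29 (SE 0.086) with overlapping libraries, a call lost with only the 6 libraries (-0.28) and without DNTCF4 replicate 2 (-0.27) or 3 (-0.23) or DNTCF4_SET replicate 1 (-0.23) or 3 (-0.28). The other groups overlapped each other. From Vector to DNTCF4_EZH2, where Lpl was 6.32-fold higher, Angptl4 was 1.09-fold higher, which was not called.

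Cd36, the scavenger receptor that takes up long-chain fatty acids, was the lowest of the lipid genes per length (chromosome 5, 17781690 to 17888801, minus strand). The Vector libraries held 0.377, 1.26 and 0.461 CPM, which are 10, 34 and 11 counts. DNTCF4 held 4.80, 3.66 and 3.74 CPM, DNTCF4_EZH2 2.17, 2.48 and 2.19, and DNTCF4_SET 3.50, 4.14 and 4.37. The DNTCF4 and SET groups overlapped and lay above the EZH2 group, and Vector lay below all others, with replicate 2 its highest library. The DNTCF4 level was 5.7-fold that of Vector (log2 2.51, SE 0.276), or a log2 difference of 3.27 without Vector replicate 2. DNTCF4_EZH2 was lower than DNTCF4 by log2 -0.83 (SE 0.219), whereas DNTCF4_SET differed from DNTCF4 by -0.02 (SE 0.206). The difference of DNTCF4_EZH2 from DNTCF4_SET was -0.82 (SE 0.218). That call was lost when any of their 6 libraries was left out (-0.9 to -0.74) and with the replicate number as a block (-0.82).

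Fabp4 and Fabp5, the fatty acid binding proteins of fat cells and of epithelium and many other tissues, are neighbours on chromosome 3 (10204088 to 10208576, minus strand, and 10012548 to 10016607, plus strand). Fabp5 read 63.0, 63.6 and 61.7 CPM in Vector, and 106, 101 and 97.1 in DNTCF4. It read 135, 136 and 131 CPM in DNTCF4_EZH2 and 135, 141 and 139 in DNTCF4_SET. The groups separated except for EZH2 and SET, which overlapped. DNTCF4 exceeded Vector by log2 0.69 (SE 0.0404), and was itself exceeded by the EZH2 group by 0.4 (SE 0.0388) and by the SET group by 0.45 (SE 0.0389).

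Fabp4 was lower than Fabp5 throughout, also per length, at 8.70, 7.46 and 7.75 CPM in Vector and 8.23, 8.60 and 10.1 in DNTCF4. It came to 12.5, 12.2 and 11.7 CPM in DNTCF4_EZH2 and 12.7, 11.4 and 12.1 in DNTCF4_SET. Vector and DNTCF4 overlapped, as did EZH2 and SET, and the latter groups lay above the former. The difference of DNTCF4 from Vector, log2 0.17 (SE 0.0899), was not called, but was called without Vector replicate 1 (0.25) or DNTCF4 replicate 1 (0.22). Against DNTCF4 the EZH2 group was higher by 0.44 (SE 0.0838) and the SET group by 0.43 (SE 0.0845).

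Plin2, a coat protein of lipid droplets in most cell types, took another course (chromosome 4, 86648386 to 86670060, minus strand). It stood at 365, 367 and 358 CPM in Vector and 405, 443 and 427 in DNTCF4. It was back at 345, 344 and 350.1 CPM in DNTCF4_EZH2 and at 354, 362 and 346 in DNTCF4_SET. Every DNTCF4 library lay above the other 9. DNTCF4 was higher than Vector by log2 0.23 (SE 0.0356), and lower values followed in the EZH2 group (-0.3, SE 0.0355) and the SET group (-0.26, SE 0.0355). Against Vector the EZH2 group differed by -0.07 (SE 0.0356) without overlap of libraries and the SET group by -0.04 (SE 0.0356), neither of them called.

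Of the transcription factors, Pparg, the nuclear receptor at the centre of fat cell formation, was low in all groups (chromosome 6, 115360951 to 115490399, plus strand). Vector libraries gave 3.54, 3.14 and 4.11 CPM and DNTCF4 libraries 5.56, 4.20 and 4.40. DNTCF4_EZH2 gave 7.85, 7.74 and 6.90 CPM and DNTCF4_SET 6.62, 6.50 and 6.31. The groups did not overlap, in the same order as for Lpl. Pparg was higher in DNTCF4 than in Vector by log2 0.39 (SE 0.127), a call lost without DNTCF4 replicate 1 (0.26), without Vector replicate 2 (0.31) and with only those 6 libraries (0.38). It was higher than DNTCF4 by 0.67 (SE 0.112) in the EZH2 group and by 0.46 (SE 0.115) in the SET group, and those groups differed by 0.21 (SE 0.107), not called. Counts are per gene, so the isoforms of its 3 annotated starts were not separated.

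Cebpa, the partner of Pparg late in the cascade, went the other way (chromosome 7, 35119293 to 35121928, plus strand). It had 3.65, 2.33 and 3.27 CPM in Vector and 0.991, 1.18 and 0.989 in DNTCF4, the latter from 26 to 37 counts a library. The EZH2 libraries had 1.32, 0.881 and 1.35 CPM, and the SET libraries 1.57, 0.977 and 1.67. Every Vector library was above the other 9, and the other 3 groups overlapped. DNTCF4 was 2.91-fold lower than Vector (log2 -1.54, SE 0.238). The differences from DNTCF4, 0.16 (SE 0.261) for the EZH2 group and 0.42 (SE 0.257) for the SET group, were not called.

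Cebpb, an early factor of the cascade that also acts in inflammation and mammary tissue, was the most abundant of the 10 per length (chromosome 2, 167688915 to 167690418, plus strand). It stood at 1152, 1144 and 1146 CPM in Vector and at 1166, 1514 and 1371 in DNTCF4. The later groups held 1270.3, 1300.4 and 1296 CPM (DNTCF4_EZH2) and 1378, 1384 and 1316 (DNTCF4_SET). Vector lay below the other 9 libraries. The DNTCF4 libraries spread most, from just above Vector in replicate 1 to the highest value of all in replicate 2. DNTCF4 exceeded Vector by log2 0.23 (SE 0.064), by 0.33 without DNTCF4 replicate 1 and by 0.14 without replicate 2. From DNTCF4 the EZH2 group differed by -0.07 (SE 0.0639), which became a call at -0.16 without DNTCF4 replicate 1, and the SET group by 0.01 (SE 0.0639).

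Cebpd, the other early factor, was at 88.5, 85.1 and 81.4 CPM in Vector and at 95.8, 114 and 100.1 in DNTCF4 (chromosome 16, 15887286 to 15891031, plus strand). It was at 114, 118 and 123 CPM in DNTCF4_EZH2 and at 122, 118 and 114 in DNTCF4_SET. Vector lay lowest and DNTCF4 next, and the EZH2 and SET groups overlapped above them. The steps were log2 0.28 (SE 0.0576) from Vector to DNTCF4, then 0.2 (SE 0.0565) to the EZH2 group and 0.19 (SE 0.0566) to the SET group. The last 2 calls were lost with only the 6 libraries (0.2 each). They were also lost without DNTCF4 replicate 3 (0.18 and 0.17), without EZH2 replicate 2 (0.2) or 3 (0.17), and without SET replicate 1 (0.17) or 2 (0.19).

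Against Vector directly, the EZH2 and SET groups had the following log2 differences. Fabp5 lay higher by 1.1 (SE 0.0401) and 1.14 (SE 0.0402), Fabp4 by 0.61 (SE 0.0861) and 0.6 (SE 0.0868), and Cd36 by 1.68 (SE 0.295) and 2.49 (SE 0.276), or 2.44 and 3.26 without Vector replicate 2. Pparg lay higher by 1.07 (SE 0.119) and 0.85 (SE 0.121), Cebpd by 0.48 (SE 0.0572) and 0.47 (SE 0.0573), and Cebpb by 0.17 and 0.24 (SE 0.064 each). Cebpa alone of the factors lay lower, by -1.38 (SE 0.23) and -1.12 (SE 0.227), so that the factors of the cascade did not all lie on one side. The call of Cebpb in the EZH2 group was lost without EZH2 replicate 2 or 3 or any of the Vector libraries (0.15 to 0.18).

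**Figure D2:**
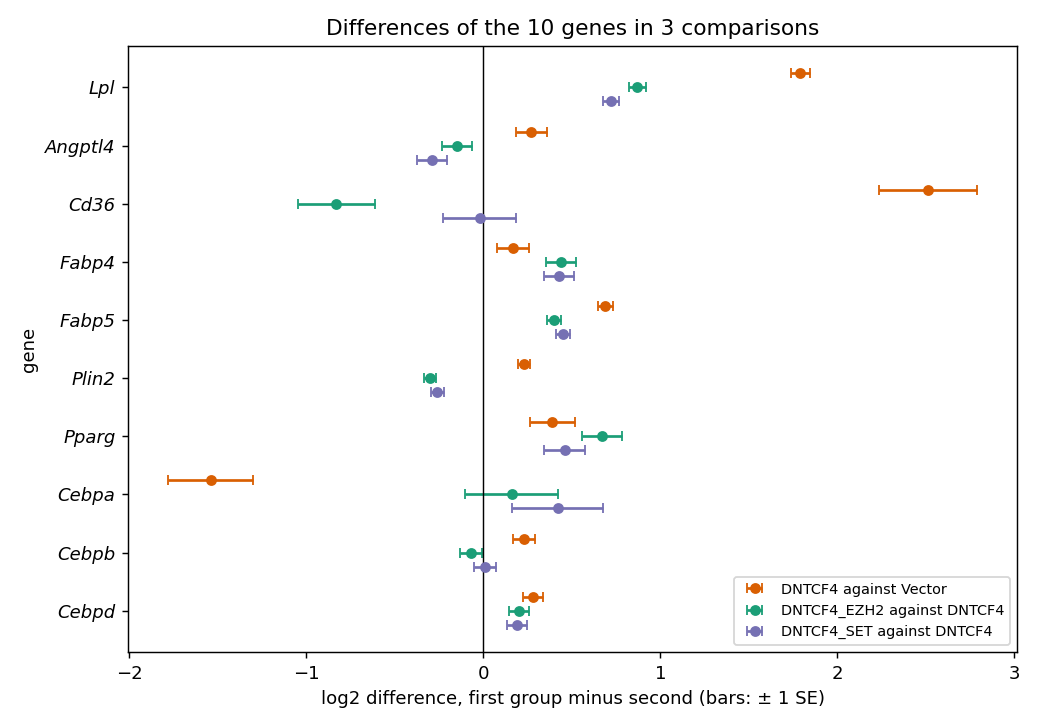
Log2 differences of the 10 genes in 3 comparisons, DNTCF4 against Vector, DNTCF4_EZH2 against DNTCF4 and DNTCF4_SET against DNTCF4; points are fitted values and bars 1 SE. Lpl lies right of 0 in each comparison (1.79, 0.87 and 0.72), Cebpa lies left of 0 only against Vector (-1.54), and Plin2 changes side (0.23, -0.3 and -0.26).

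Counted over the 10 genes, 8 were called higher and 1 lower in DNTCF4 than in Vector, where 57.5% of all tested genes were called. In DNTCF4_EZH2 against DNTCF4, 5 were higher and 2 lower beside 25.5% of all genes, and in DNTCF4_SET against DNTCF4 also 5 and 2 beside 26%. Between DNTCF4_EZH2 and DNTCF4_SET only Cd36 was called, lower, beside 5.16% of all genes. Against Vector, 7 were higher and 1 lower in the EZH2 group (57.7% of all genes called) and in the SET group (58%). Because the genes were chosen with these results known, nothing is read from these counts. The comparisons also share the DNTCF4 or Vector libraries, so their values are not independent of each other.

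Levels can be ranked between genes only per length, here as CPM per kilobase of annotated exons. The length joined the exons of all annotated transcripts, which for Fabp4 (4489 bases) cover the whole gene. It can thus exceed the length of the RNA that is made, and ranks of genes with close values are uncertain. Cebpb led in every group, at 763 in Vector and up to 904 CPM per kilobase in DNTCF4_SET, followed by Plin2 at 98.6 to 121. Fabp5 came to 17.6 in Vector and 38.8 CPM per kilobase in DNTCF4_SET, and Cebpd to 22.7 and 31.5. Lpl passed from 1.45 in Vector to 5.01 in DNTCF4 and 9.14 CPM per kilobase in DNTCF4_EZH2. Pparg (1.22 to 2.54), Fabp4 (1.78 to 2.71), Angptl4 (2.64 to 3.21), Cebpa (0.399 to 1.17) and Cd36 (0.194 to 1.13) made up the low end. Of the cascade, the early factors were thus present at far higher levels than Pparg and Cebpa.

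Cells that make these genes in tissue were looked for through markers. Of 8 fat cell markers only Lipe, the hormone-sensitive lipase, reached a mean of 1 CPM, at 12.1 to 14.7 CPM in the group means. Adipoq, Cidec and Cfd, which define mature fat cells, had at most 3 counts in any group of 3 libraries. The summed level of the 8 ran from 14.0 to 15.7, 13.2 to 15.8, 11.8 to 12.9 and 13.7 to 15.1 CPM over the libraries of Vector, DNTCF4, DNTCF4_EZH2 and DNTCF4_SET. Of 8 macrophage markers 3 reached 1 CPM in each group, led by Cd68, a lysosomal protein, and the sum of the 8 ran from 62.0 to 67.2, 54.8 to 76.9, 76.0 to 81.9 and 68.1 to 76.3 CPM in the same order. The pan-leukocyte gene Ptprc had 31, 0, 2 and 5 counts over these groups, and Adgre1 0, 7, 9 and 11. Of 8 endothelial markers 2 reached 1 CPM, Cdh5 and Egfl7. The sum of these 8 was lowest beside the lowest Lpl, at 3.84 to 4.69 CPM in Vector, and ran from 5.93 to 7.29, 7.15 to 8.10 and 7.89 to 9.19 CPM in the other groups. Egfl7 (1.90, 2.89, 4.65 and 4.50 CPM) and Cdh5 (1.06, 2.09, 1.69 and 2.29) carried most of it, while Pecam1 went the other way (0.811, 0.695, 0.501 and 0.515), as did Emcn (15, 0, 1 and 1 counts). The part of any such cells in the values of Lpl, Cd36 and Fabp4 was not tested. As for the labelled line, mesenchymal markers summed to 3093 to 3348 CPM in Vector and to 1618 to 2021 in the other groups, with Vim highest in every group. Col1a1, Col1a2, Vim and Pdgfrb were lower outside Vector, whereas Pdgfra went from 322 CPM in Vector to 440, 447 and 485 in the other groups and Prrx1 from 19.8 to 87.4, 103 and 116, with Twist1 at 0 and Thy1 at most at 5 counts a group. The epithelial sum lay between 318 and 354 CPM in all libraries, nearly all of it Krt8 and Krt18, with Epcam and Krt14 below 1 CPM. Within it Cldn4 (0.978, 2.58, 3.46 and 3.91 CPM over the same groups) and Epcam (0.215, 0.223, 0.679 and 0.745) were lowest in Vector. Cdh1 (0.796, 0.594, 0.889 and 1.01) and Esrp1 (0.165, 0.0912, 0.0304 and 0.253) were not.

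The surroundings of the 10 genes were described with 8 lists of related genes, 158 in all, of which 114 could be tested. In DNTCF4 against Vector 36 of them were called higher and 36 lower, 63.2% beside 57.5% of all tested genes, with a median log2 difference of -0.02 beside 0.007 over all. In DNTCF4_EZH2 against DNTCF4 28 were higher and 23 lower, 44.7% beside 25.5%, with a median of 0.05 beside 0. In DNTCF4_SET against DNTCF4 23 were higher and 20 lower, 37.7% beside 26%, with a median of 0.05 beside -0.004. Against Vector, 38 were higher and 33 lower in the EZH2 group (62.3% beside 57.7%), and 41 and 34 in the SET group (65.8% beside 58%), close to the shares over all genes. Their p-values below, by edgeR's quasi-likelihood test, are adjusted by Benjamini-Hochberg over all tested genes. The lists were written from general knowledge, but with earlier results of these libraries known. Each p-value covers its gene alone, and the shares called are descriptions that test no list.

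**Figure D3:**
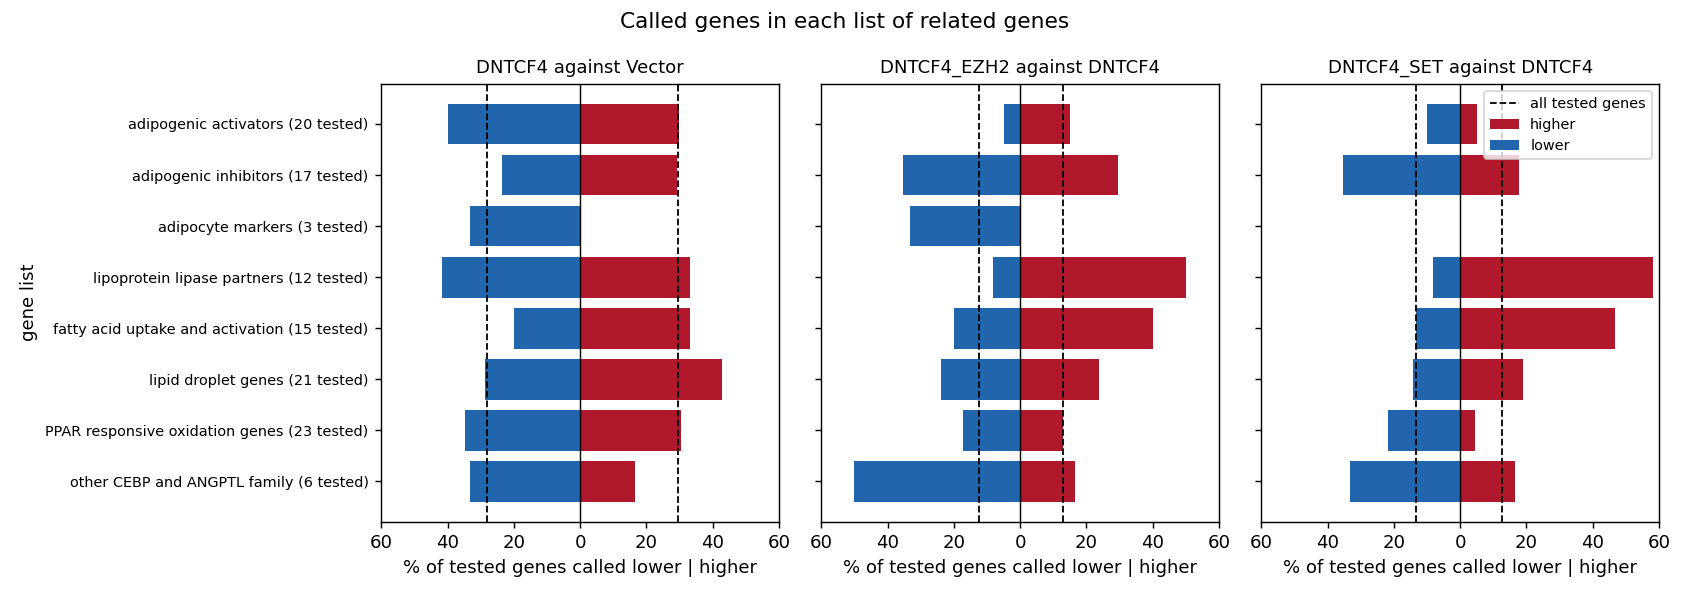
Share of the tested genes of each list called higher (right, red) or lower (left, blue) in 3 comparisons, in percent; dashed lines mark the same shares over all tested genes. Lipoprotein lipase partners have 4 higher and 5 lower of 12 genes in DNTCF4 against Vector, and 6 and 7 higher with 1 lower in the EZH2 and SET groups against DNTCF4.

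Among the partners and relatives of lipoprotein lipase, 12 of 20 genes were tested. In DNTCF4 4 were called higher and 5 lower than in Vector (75% called), and over DNTCF4 6 were higher and 1 lower in the EZH2 group (58.3%) and 7 and 1 in the SET group (66.7%). Vldlr, the lipoprotein receptor that works beside the lipase, rose with it, from 128 ± 2.33 CPM (SD, n = 3) in Vector to 224 ± 4.49 in DNTCF4. Its rise was 1.75-fold (adjusted p = 1.31e-11), and it went on to 264 ± 3.32 CPM in DNTCF4_EZH2 and 281 ± 3.97 in DNTCF4_SET (adjusted p = 5.71e-05 and 3e-06 against DNTCF4). Lrp1, the large endocytic receptor, went from 601 CPM in Vector down to 466 in DNTCF4, then up to 671 (EZH2 group) and 709 (SET group). It rose over DNTCF4 by log2 0.53 (adjusted p = 9.69e-07) and 0.61 (adjusted p = 2.77e-07). Lipg, the endothelial lipase, fell 1.33-fold in DNTCF4 (adjusted p = 1.2e-06). Apoe, a ligand of these receptors, was at 5.62, 8.82, 6.16 and 4.61 CPM in Vector, DNTCF4, DNTCF4_EZH2 and DNTCF4_SET, and its fall from DNTCF4 to the SET group was 1.91-fold (adjusted p = 5.7e-07). Sort1, a sorting receptor of the lipase, rose from 0.44 CPM in Vector to 1.83 in DNTCF4_EZH2 (adjusted p = 2.09e-05) and 3.05 in DNTCF4_SET (adjusted p = 4.29e-07). Gpihbp1, which anchors the lipase to capillary walls, had 0 counts in every library, which allows up to 0.127 CPM in the shallowest.

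Fatty acid uptake and activation was covered by 15 tested genes of 23, of which 5 rose and 3 fell in DNTCF4 (53.3% called). Acsl6, an acyl-CoA synthetase, rose 10.7-fold from 0.348 ± 0.0248 CPM (SD, n = 3) to 3.76 ± 0.358 (adjusted p = 3.99e-10). Acsbg1, another synthetase, rose 3.37-fold to 40.7 CPM (adjusted p = 1.74e-11), and fell again to 29.4 CPM in DNTCF4_EZH2 (adjusted p = 7.3e-05). Dbi, the acyl-CoA binding protein, fell from 65.2 to 47.7 CPM (adjusted p = 7.17e-07) and returned to 64.2 in DNTCF4_EZH2 (adjusted p = 6.33e-06) and 55.9 in DNTCF4_SET (adjusted p = 0.00198). Over DNTCF4, 6 genes rose and 3 fell in the EZH2 group (60%), among them Scarb1, the lipoprotein receptor related to Cd36, which rose by log2 0.35 (adjusted p = 7.16e-05). In the SET group 7 rose and 2 fell (60%), with Acsl3 (log2 0.2, adjusted p = 0.00191) and Acsl5 (0.19, adjusted p = 0.00229) among the former.

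Of 21 tested lipid droplet genes, 9 rose and 6 fell in DNTCF4 (71.4% called), and over DNTCF4 5 rose and 5 fell in the EZH2 group (47.6%) and 4 and 3 in the SET group (33.3%). Hilpda, an inhibitor of droplet lipolysis, was highest in DNTCF4, as Plin2 was, but unlike Plin2 it stayed called above Vector in the EZH2 group (1.63-fold, adjusted p = 8.22e-08) and the SET group (1.89-fold, adjusted p = 3.05e-09). It rose from 25.7 ± 2.68 to 72.7 ± 1.28 CPM (SD, n = 3; adjusted p = 9.23e-12), then fell to 41.8 ± 0.679 in DNTCF4_EZH2 (adjusted p = 5.14e-08) and 48.6 ± 1.0 in DNTCF4_SET (adjusted p = 2.29e-06). Dgat2, which makes triglyceride, rose 1.69-fold in DNTCF4 (adjusted p = 2.42e-06), as did the lipin Lpin3, 2.43-fold from a low level of 3.25 CPM (adjusted p = 2.97e-07). The coat proteins Plin4 and Plin3 differed from Plin2 in the second step. Plin4, low at 2.58 CPM in DNTCF4, rose over DNTCF4 by log2 0.8 in the EZH2 group (adjusted p = 0.000828) and 0.59 in the SET group (adjusted p = 0.00856). Plin3 rose by 0.17 in the EZH2 group (adjusted p = 0.00603), and was at 126 CPM in DNTCF4 and 137 in DNTCF4_SET. Plin1 and Plin5 had too few counts to be tested.

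The list of PPAR responsive oxidation genes, which also holds the receptor genes Ppara and Ppard, had 23 tested genes. Of these, 7 were higher and 8 lower in DNTCF4 (65.2% called). Over DNTCF4 3 were higher and 4 lower in the EZH2 group (30.4%) and 1 and 5 in the SET group (26.1%). Pdk4, a kinase that turns the cell from glucose to fat burning, rose 2.23-fold to 52.7 ± 4.02 CPM (SD, n = 3; adjusted p = 2.26e-10). It fell to 39.2 CPM in DNTCF4_EZH2 and 40.2 in DNTCF4_SET (adjusted p = 4.61e-05 and 0.000121). It was still called above Vector there, 1.66-fold and 1.7-fold (adjusted p = 5.48e-08 and 3.07e-08). Acot2, a mitochondrial thioesterase, was also highest in DNTCF4, at 25.1, 38.6, 25.9 and 27.7 CPM over the 4 groups. It differed from Vector by log2 0.05 in the EZH2 group (not called) and by 0.14 in the SET group (adjusted p = 0.0449). The latter call lay just below the threshold, with overlapping libraries. Acadvl, of the first step of long-chain oxidation, fell 1.44-fold in DNTCF4 (adjusted p = 6.76e-07). Acaa2, of the last step, stood at 42.1, 52.3, 41.1 and 43.2 CPM over the 4 groups. It was higher in DNTCF4 than in Vector by log2 0.31 (adjusted p = 2.6e-05). From DNTCF4 it fell back by -0.35 in the EZH2 group (adjusted p = 4.17e-05) and by -0.28 in the SET group (adjusted p = 0.000334).

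**Figure D4:**
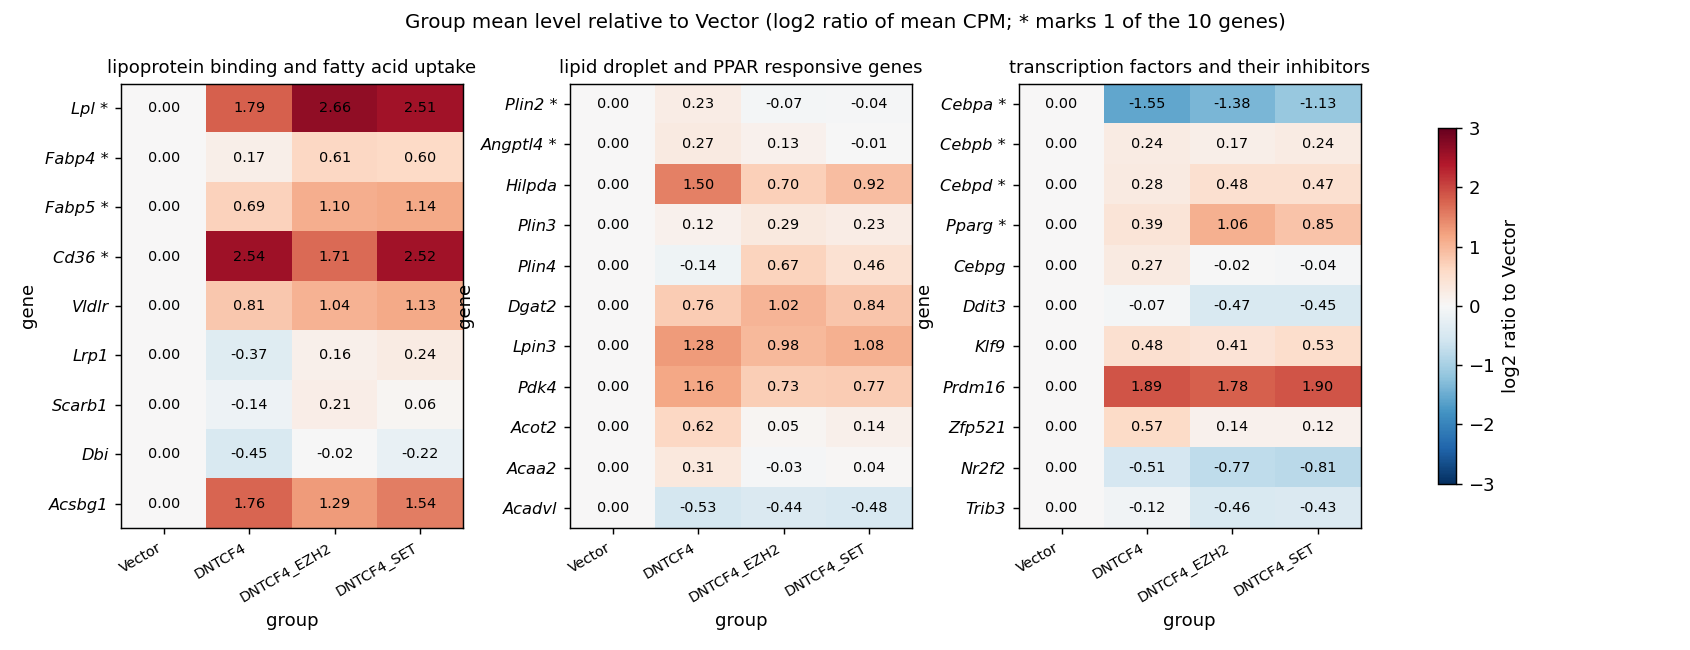
Group mean levels of genes named in the text as log2 ratios to Vector, printed in each cell and coloured from blue (lower) to red (higher); an asterisk marks 1 of the 10 genes. Lpl, Fabp5, Pparg and Vldlr are redder in DNTCF4_EZH2 and DNTCF4_SET than in DNTCF4, and Hilpda, Pdk4, Acot2 and Plin2 are paler there.

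Regulators of adipogenesis changed in both directions. Of 20 tested activators 6 rose and 8 fell in DNTCF4 (70% called), and of 17 tested inhibitors 5 rose and 4 fell (52.9%), beside 57.5% of all genes. Prdm16, a factor of brown fat, rose 3.67-fold to 4.90 CPM (adjusted p = 3.84e-08). Klf9, a Krüppel-like factor, rose 1.39-fold and reached 244 CPM (adjusted p = 5.63e-09), whereas Ppargc1a, the coactivator of Pparg, fell 2.22-fold to 1.49 CPM (adjusted p = 6.3e-05). Of the inhibitors, Nr2f2 fell from 59.1 to 41.6 CPM (adjusted p = 2.85e-07) and Wnt10b from 15.1 to 10.8 (adjusted p = 8.53e-05), while Zfp521 rose from 13.3 to 19.8 (adjusted p = 9.01e-07). Over DNTCF4 the activators had 3 genes higher and 1 lower in the EZH2 group (20% called beside 25.5% of all genes) and 1 higher and 2 lower in the SET group (15% beside 26%). The inhibitors had 5 higher and 6 lower in the EZH2 group (64.7%) and 3 higher and 6 lower in the SET group (52.9%). Zfp521 fell back to 14.7 CPM in DNTCF4_EZH2 (adjusted p = 5.74e-05) and 14.5 in DNTCF4_SET (adjusted p = 4.8e-05). Ddit3, a C/EBP protein that blocks the others, fell from 125 to 94.6 and 96.0 CPM (adjusted p = 2.5e-06 and 5.7e-06), and Trib3, its partner in the stress response, from 168 to 132 and 135 (adjusted p = 4.59e-06 and 1.51e-05). Ddit3 has 2 rows of that symbol in the count table, and the row with an Entrez identifier was used. Cebpg, a further C/EBP gene, rose 1.2-fold in DNTCF4 (adjusted p = 0.00171) and fell in the EZH2 group by -0.29 and in the SET group by -0.3 (adjusted p = 0.00263 and 0.002). Angptl7, of the family of Angptl4, fell 6.48-fold in DNTCF4, from 3.20 to 0.484 CPM (adjusted p = 2.31e-07), and Angptl2 rose by 0.32 and 0.28 over DNTCF4 (adjusted p = 0.00015 and 0.000509).

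The fat cell list itself mostly failed the count filter: 3 of its 20 genes could be tested, 1 of which was called in DNTCF4 against Vector, lower. Lipe differed by -0.26 between DNTCF4_EZH2 and DNTCF4 (adjusted p = 0.0231), a call lost without DNTCF4 replicate 2 or 3, without EZH2 replicate 1 or 2 and with only those 6 libraries (adjusted p from 0.00208 to 0.116 over 13 alternatives).

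Between DNTCF4_EZH2 and DNTCF4_SET, 4 of the 114 related genes were higher and 3 lower, 6.14% beside 5.16% of all tested genes. Apoe was 1.33-fold higher in the EZH2 group (adjusted p = 0.00643) and kept its call under each alternative tried. Dbi, Trib2 and Cpt1c were also higher there, by log2 0.2, 0.2 and 0.32 (adjusted p = 0.0182, 0.0168 and 0.0212), and Klf9, Hilpda and Acsbg1 lower, by -0.12, -0.22 and -0.26 (adjusted p = 0.0402, 0.0342 and 0.0327). Each of these 6 calls was lost without at least 4 of the libraries in turn.

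The genes whose course over the 12 libraries was most like that of each of the 10 were found by the root mean square (RMS) difference in log2 CPM, each gene centred on its mean, among 11663 genes. Lpl had Scube3 (RMS 0.133), Serping1 and Cd1d1 as its nearest, and Scube3, a secreted protein, stood at 2.47, 9.27, 14.8 and 16.3 CPM over Vector, DNTCF4, DNTCF4_EZH2 and DNTCF4_SET. Fabp5 had Insig1 (RMS 0.0662), Vldlr and Blnk, and Insig1, which holds back sterol synthesis, stood at 60.2, 97.5, 131 and 125 CPM. Pparg had Mme (RMS 0.112), Pttg1 and Sema3e, and Mme, a membrane peptidase, stood at 33.5, 48.4, 69.3 and 63.6 CPM. The falling Cebpa had Sertad4 (RMS 0.234), Kif26b and Ramp3. Cd36 had Epm2a (RMS 0.278), Enpp4 and Mid2, the largest RMS of the 10. The RMS tends to grow with a gene's own spread, an SD in log2 CPM of 1.17 for Cd36, 0.661 for Cebpa and 0.151 for Angptl4. It was not scaled to that spread, so it does not rank how well the courses of the 10 were matched. For the genes of small change, the nearest were Runx1 for Cebpb (RMS 0.0347), Map3k12 for Cebpd (0.0431), Tns1 for Fabp4 (0.0833), Srp68 for Plin2 (0.0244) and Casc3 for Angptl4 (0.0586). The 12 points share their libraries and depth, and likeness is a description.

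Some counts may depend on neighbours. Cebpb overlaps Tmem189 on the other strand (2268 to 5042 counts a library) and Cebpd overlaps Spidr (1026 to 2157 counts). Overlap was taken over whole genes with their introns, and whether exons are shared was not tested. The sources used here do not say whether counting used strand. Without strand, reads from a shared exon could not be told apart. The antisense genes over Cebpa and Pparg had at most 1 count, and so had Fabp5l2, the near copy of Fabp5 with a row of its own.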

How the data were processed

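Gene expression was measured by RNA-seq in 12 libraries, 3 for each of 4 groups. The authors deposited expected counts per gene and log2 values (rlog), and, per the submitters' processing notes, used cutadapt 2.3, FastQC 0.11.8, STAR 2.7.8a, RSEM 1.3.3, DESeq2 and build GRCm38. The sources used here do not give settings or the use of strand. The rlog values shrink the differences of low genes, and served for 1 alternative only.

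The 10 genes and the lists were chosen with earlier results of these data known. The lists were written from general knowledge of adipogenesis and lipid handling, and not by how their genes moved. Expected counts were rounded, filtered (filterByExpr, minimum count 10, minimum total 15) and scaled by TMM, which left 15052 genes. All 12 libraries entered 1 quasi-likelihood fit (edgeR 4.0.16, limma 3.58.1, R 4.3.3; 8 residual degrees of freedom, biological coefficient of variation 5.17%) with 6 comparisons, Benjamini-Hochberg adjustment over all tested genes and a threshold of 0.05. The scripts were tested on simulated data. Total counts ran from 23597545 to 33999982, so that 3 counts, the limit a count of 0 allows, equal 0.0882 to 0.127 CPM. Intervals of this kind cover counting error only.

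The text names all 10 genes, up to 3 called genes with the smallest p per list and comparison whose higher group had a mean of at least 1 CPM, and the 3 genes most alike to each of the 10 (prior count 2, mean of at least 1 CPM). Some genes that this rule names are not reported here. Alternatives were DESeq2 size factors, no filter, a filter at a mean of 1 CPM, a replicate block, limma on the rlog values, a Wald test in DESeq2 1.42.0, only the 6 libraries compared, a 2-fold minimum, and leaving out each library in turn.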

Additional observations from a re-analysis of the deposited data

How the results depend on the processing

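Of the differences of the 10 genes under the alternatives, 730 kept direction and side of the threshold, 29 lost their call, 5 gained one and 16 changed sign, all of the last from values near 0 that were not called; the cause was not tested. Called and changed by 2-fold or more were 3 of the 10 genes in DNTCF4 against Vector, 0 in DNTCF4_EZH2 and 0 in DNTCF4_SET against DNTCF4, 0 between those groups, and 5 and 4 in them against Vector. For the 114 tested related genes these counts were 13, 2, 1, 0, 13 and 11. Over all 15052 tested genes they were 1759, 261, 304, 21, 1753 and 1780 in the same order. Between DNTCF4_EZH2 and DNTCF4_SET the count of the 10 genes, 1 by edgeR's quasi-likelihood test, was 2 with only the 6 libraries and 0 to 0 without each replicate. That of the related genes was 14 with no filter, 27 with only the 6 libraries and 1 to 3 without each replicate. The count over all tested genes moved as well. It was 777 of 15052 by edgeR's quasi-likelihood test, 1039 of 31355 with no filter and 2177 of 14475 with only the 6 libraries. Without each replicate it was 359 to 439 of 15626 to 15672. Signs changed, with the range over left-out replicates, for Angptl4 in DNTCF4_SET against Vector (0.06 without DNTCF4_SET replicate 1, 0.02 without Vector replicate 2; -0.1 to 0.06) and for Cd36 in DNTCF4_SET against DNTCF4 (0 with DESeq2 size factors, 0.11 without DNTCF4 replicate 1, 0.07 without DNTCF4_SET replicate 1; -0.09 to 0.11). For Cebpb they changed in DNTCF4_EZH2 against DNTCF4 (0.02 without DNTCF4 replicate 2; -0.16 to 0.02) and DNTCF4_SET against DNTCF4 (-0.09 without DNTCF4 replicate 1, 0 and -0.01 without DNTCF4_SET replicate 1 or 2; -0.09 to 0.1). Between DNTCF4_EZH2 and DNTCF4_SET they changed for Cebpd (-0.01 with DESeq2 size factors, the Wald test and rlog, -0.02 without DNTCF4_EZH2 replicate 3 or DNTCF4_SET replicate 3; -0.02 to 0.03) and Fabp4 (-0.01 without DNTCF4_EZH2 replicate 1, -0.02 without DNTCF4_SET replicate 2; -0.02 to 0.05).

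The replicate numbers are not shown to pair the samples: deviations of same-numbered libraries from their group means correlated between -0.0906 and 0.151. These values cannot decide whether same-numbered libraries were handled together, since the deviations hold counting noise and sum to 0 within a group. With the number as a replicate block, 0 of the 10 genes were called between DNTCF4_EZH2 and DNTCF4_SET, and the related genes called were 70, 49, 39, 6, 70 and 74 in place of 72, 51, 43, 7, 71 and 75. Over all tested genes the calls were then 8584, 3713, 3736, 638, 8553 and 8592 in place of 8653, 3841, 3914, 777, 8688 and 8733. Depth limits Cebpa, Cd36 and Pparg most, the genes of fewest counts.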
